A study of Mus musculus with 55 samples.

Results

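The alcohol and aldehyde dehydrogenases described here are 10 genes, taken by symbol from the 37620 gene identifiers quantified in each liver. *Adh1*, *Adh4* and *Adh5* encode alcohol dehydrogenases, and *Adhfe1*, grouped with them here, encodes a hydroxyacid-oxoacid transhydrogenase. *Aldh1a1*, *Aldh1a7*, *Aldh1b1*, *Aldh2*, *Aldh8a1* and *Aldh16a1* encode members of the aldehyde dehydrogenase superfamily. Each symbol matched 1 identifier, and all 10 genes passed the filter on low counts. *Adhfe1*, *Aldh8a1* and *Aldh16a1* were picked by the study on these same livers for association with a nearby variant (the isoform ratio of *Adhfe1*, the total expression of the other two). Differences of these genes among lines are therefore not independent evidence.

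The livers came from 55 male mice of 29 Collaborative Cross (CC) lines, a panel of recombinant inbred mouse lines derived from several founder strains. All mice were naive (no treatment), 8 to 11.9 weeks old and 12.8 to 38 g in weight. There were 8 lines with 1 mouse, 16 with 2 and 5 with 3, and the line was the only grouping. RNA of whole liver was sequenced, with 20542671 to 33953036 fragments assigned to genes per liver (median 27700357).

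Alcohol dehydrogenases oxidize alcohols to aldehydes, and aldehyde dehydrogenases oxidize aldehydes to acids, in most cases with NAD as the cofactor. In hepatocytes these enzymes turn ethanol into acetaldehyde and then acetate, and related members act on retinoids, formaldehyde, lipid aldehydes and intermediates of amino acid breakdown. Some members work in the cytosol and others in mitochondria.

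The line labels of the mice of IL-1052 and IL-2750 are in doubt, because these mice were intermixed in the published clustering of the livers, and the main results were also computed without them. IL-2146 stood apart across the transcriptome, with 22.7% of all genes above the mean of the other lines and 19.6% below it. The 6 hepatocyte markers (*Alb*, *Apoa1*, *Ttr*, *Tat*, *Cps1*, *Cyp2e1*) summed to 27331 to 62832 FPKM (fragments scaled by transcript length and by depth) per line. The 6 Kupffer cell markers summed to 12.8 to 121 FPKM, the 5 lymphocyte markers to 0.535 to 6.42 FPKM, the 5 endothelial markers to 11.8 to 51.7 FPKM, the 6 stellate cell markers to 12.7 to 123 FPKM and the 5 cholangiocyte markers to 9.74 to 155 FPKM. IL-2146 was the lowest line in endothelial (11.8 FPKM, median of lines 33.0) and stellate cell markers (12.7 FPKM, median 63.5). There 4 of 5 endothelial markers were called lower, among them *Kdr* (log2 difference -2.48) and *Lyve1* (-4.74), as were 5 of 6 stellate cell markers, among them *Dcn* (-2.46). IL-2156 was the lowest line in hepatocyte markers (27331 FPKM, 3 of 6 called lower) and the highest in cholangiocyte markers (155 FPKM, 2 of 5 called higher). In that line 6 of 6 Kupffer cell markers were called higher, but its mice ranged from 42.6 to 199 FPKM in their sum. Other lines also had most markers of a list called. Of the 6 Kupffer cell markers, 5 were lower in IL-670 and 5 higher in IL-2680. In IL-4457 all 5 cholangiocyte markers were higher, and in IL-2011 4 of 6 hepatocyte markers were lower. The part of these markers in the calls of any of these lines was not tested. In whole liver, fewer cells of a type and less RNA per cell cannot be told apart.

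*Aldh1a1* (ENSMUSG00000053279, chr19:20676451-20717952, plus strand, build NCBIM37) and *Aldh1a7* (ENSMUSG00000024747, chr19:20767443-20802052, minus strand) are close paralogs, and their sequences set how well their levels can be separated. Their coding sequences, of 1506 bases each, were identical at 1380 positions (91.6%). Of the 2004 stretches of 50 bases in the *Aldh1a1* transcript, 151 (7.53%) also occurred in that of *Aldh1a7*. The expected counts of both genes were not whole numbers in 55 of 55 livers, that is, fragments were divided between features. Coding bases 877 to 939 are shown because they surround the codon of the catalytic cysteine (codon 303) and hold 15 differences, in capitals, by which fragments can be assigned. They lie in exon 9 of 13 in both genes, at chr19:20705182-20705244 for *Aldh1a1* and chr19:20782736-20782798 for *Aldh1a7*, written 5′ to 3′ on the coding strand.
Aldh1a1: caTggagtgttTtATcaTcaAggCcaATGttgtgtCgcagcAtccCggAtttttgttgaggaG
Aldh1a7: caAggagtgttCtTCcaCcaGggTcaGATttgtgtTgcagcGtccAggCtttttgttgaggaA

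The neighboring alcohol dehydrogenases of chromosome 3 are farther apart in sequence. *Adh1* (ENSMUSG00000074207, chr3:137923955-137953662), *Adh4* (ENSMUSG00000037797, chr3:138078430-138093856) and *Adh5* (ENSMUSG00000028138, chr3:138106057-138118463) all lie on the plus strand. Their coding sequences were identical at 64.8% to 66.97% of aligned bases, and no stretch of 50 bases was shared between any pair of them. Expected counts were whole, within 0.005, in all 55 livers for *Adh4*, *Adh5*, *Aldh1b1*, *Aldh2* and *Aldh8a1*, whereas they were not whole in 1 liver for *Adh1*, 12 for *Adhfe1* and 48 for *Aldh16a1*.

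*Adh1* was the most abundant of these genes and *Aldh16a1* the least. The mean of the 29 line means was 880 FPKM for *Adh1*, 653 for *Aldh1a1*, 575 for *Aldh2*, 203 for *Adh5*, 149 for *Adh4*, 138 for *Aldh1a7*, 108 for *Aldh8a1*, 36.7 for *Adhfe1*, 35.9 for *Aldh1b1* and 13.9 FPKM for *Aldh16a1*. *Aldh1a1* and *Aldh2*, *Adh4* and *Aldh1a7*, and *Adhfe1* and *Aldh1b1* had means closer to each other than the spread of their line means. Among all genes *Adh1* ranked 103 by mean FPKM, and *Aldh16a1* ranked 3228.

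**Figure D1:**
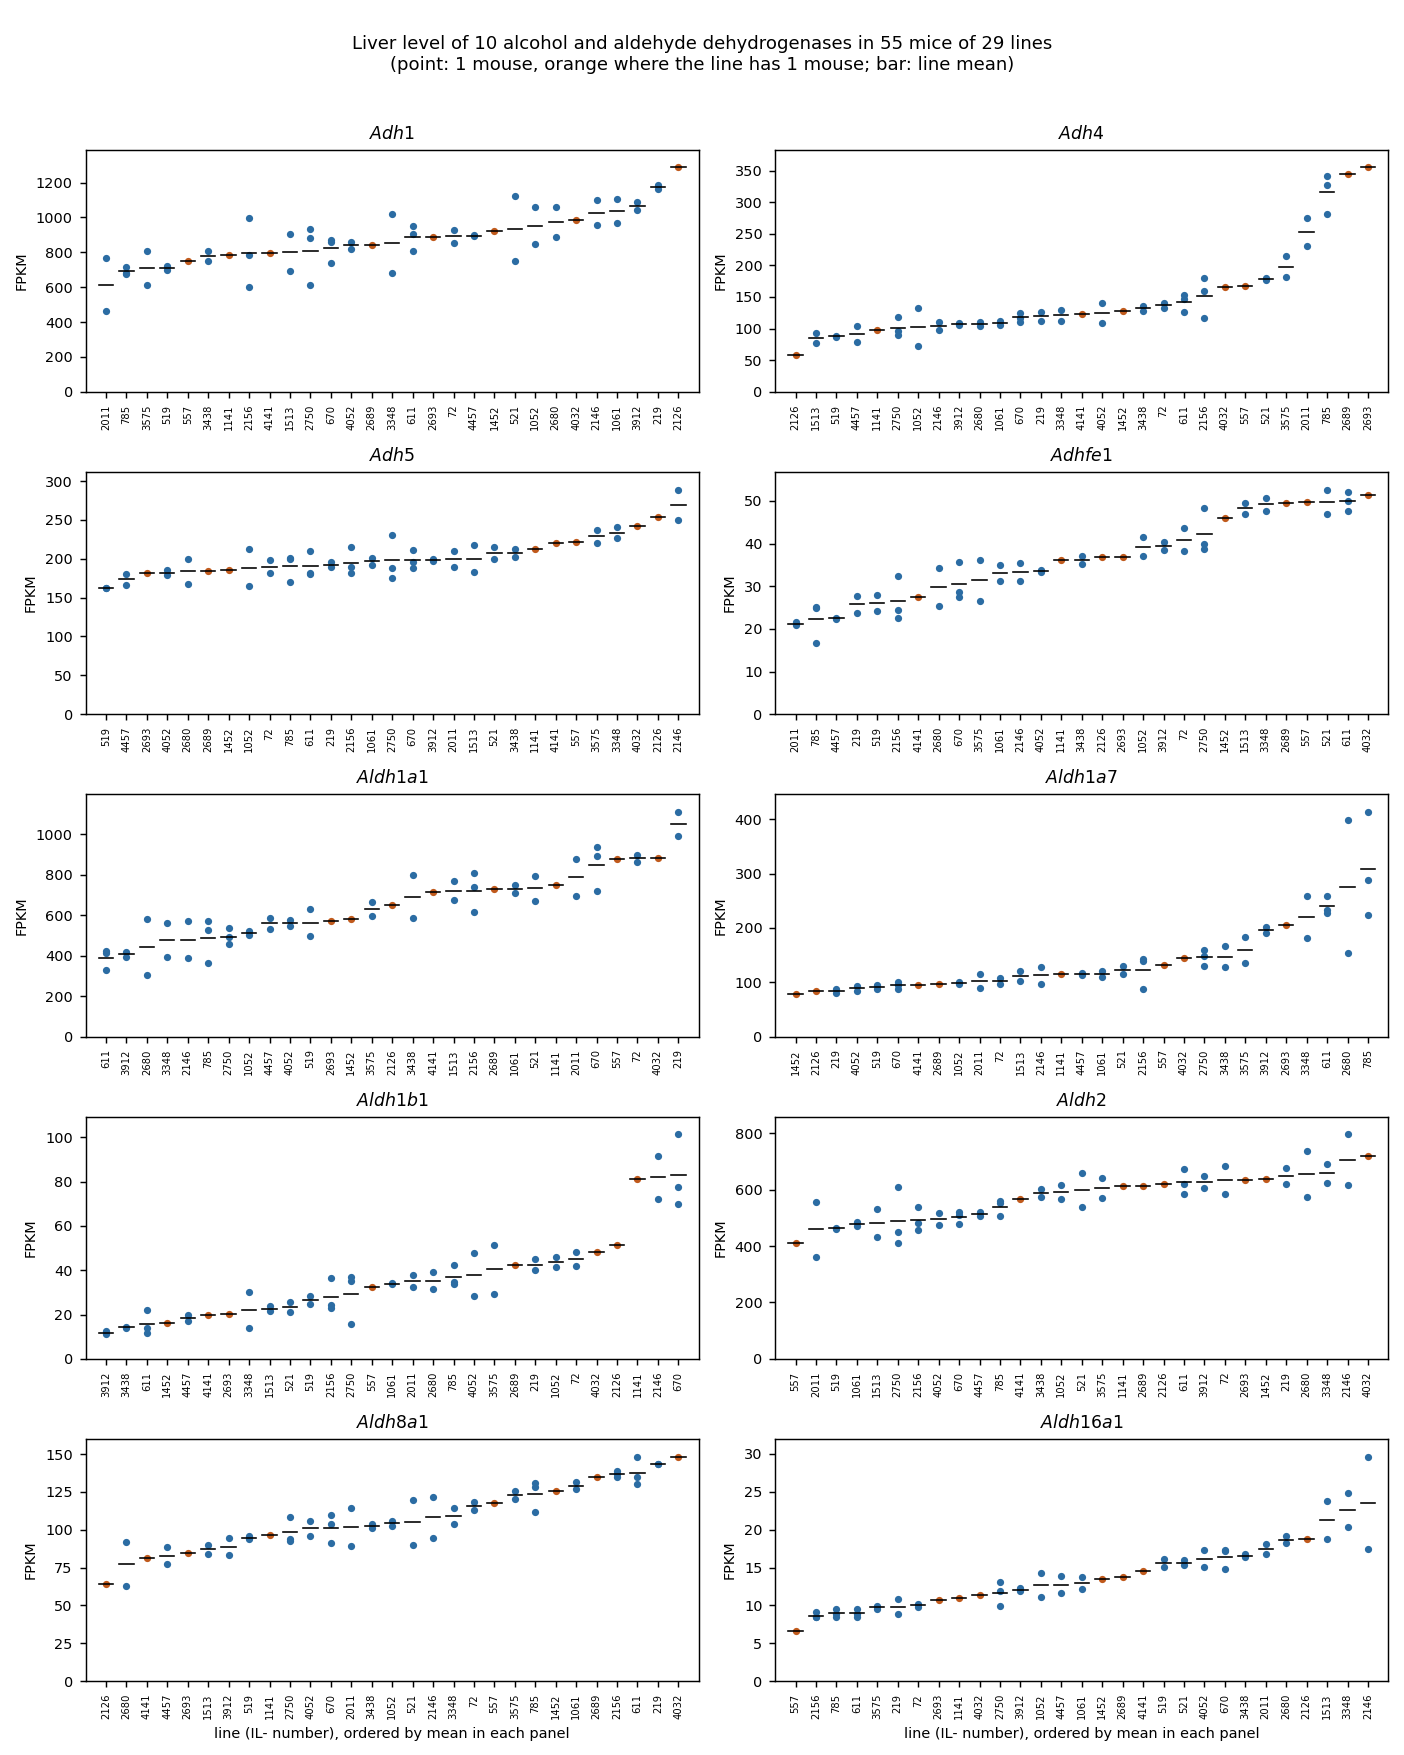
Level of each gene (FPKM, axis from 0) in 55 livers, with the 29 lines ordered by mean within each panel; a point is 1 mouse, orange where the line has 1 mouse, and a bar is the line mean. Line means of *Adh4* run from 58.8 to 355 FPKM, and those of *Adh5* from 162 to 269 FPKM.

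To ask whether levels differed among lines beyond the spread between line mates, a single fit took the 21 lines represented by 2 or 3 mice (47 mice). All 10 genes differed (edgeR quasi-likelihood F test, adjusted over all genes), but so did 88.5% of the 15285 genes tested. Adjusted p-values of this edgeR test were lowest for *Adh4* (1.60e-10), *Aldh16a1* (2.25e-09) and *Adhfe1* (7.10e-08) and highest for *Adh5* (0.00235), *Adh1* (0.0146) and *Aldh2* (0.0311). The call of *Aldh2* ended without the filter on low counts (edgeR, adjusted p = 0.103), without IL-2146 replicate 1 (0.0792) and without IL-2156 replicate 3 (0.0513). All 10 were still called without IL-1052 and IL-2750.

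The intraclass correlation, the share of variance in rank-based scores that lies between lines, was computed over all 55 mice. It was 0.887 for *Aldh16a1*, 0.804 for *Adhfe1*, 0.797 for *Adh4*, 0.764 for *Aldh1a7*, 0.759 for *Aldh8a1*, 0.753 for *Aldh1b1* and 0.692 for *Aldh1a1*. Lower values were found for *Aldh2* (0.495), *Adh5* (0.461) and *Adh1* (0.333). The median was 0.756 over the 10 genes and 0.592 over the 5951 total-expression traits kept. By permutation of the line labels all 10 were called, beside 94.2% of all traits. *Adh1* was closest to the threshold (permutation test, adjusted p = 0.0466), and its call ended on the TPM scale (0.0614), on the log2(FPKM + 1) scale (0.0735) and on leaving out any of 31 mice singly (up to 0.0977).

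**Figure D2:**
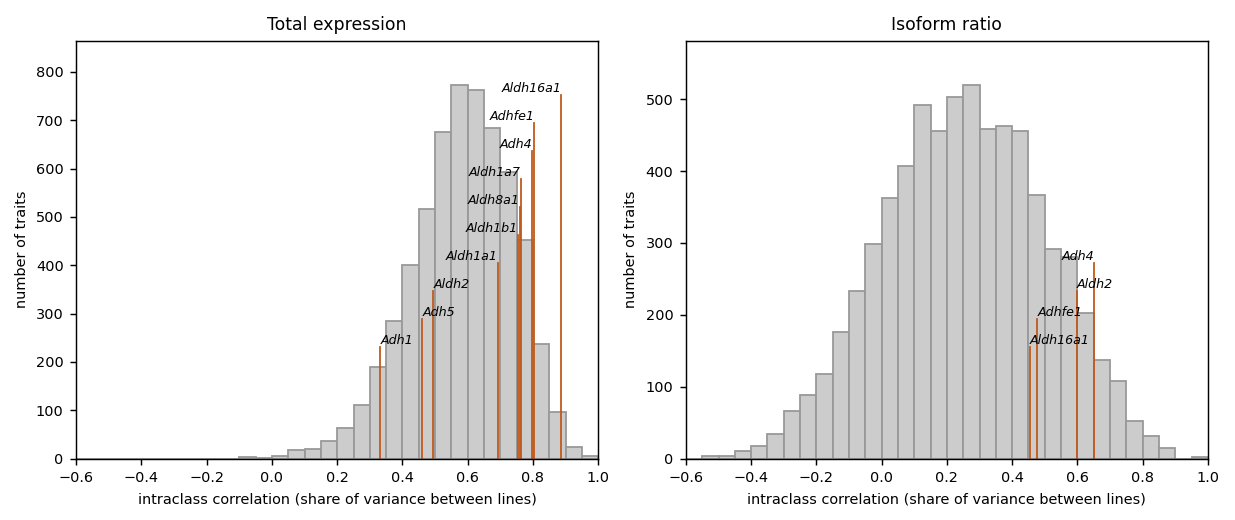
Histograms of the intraclass correlation over 5951 total-expression traits (left) and 6652 isoform-ratio traits (right); the vertical axis is the number of traits. Orange lines mark the dehydrogenases, their heights serving only to separate the names, with *Adh1* at 0.333 and *Aldh16a1* at 0.887 on the left.

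Each of the 21 lines was then set against the mean of the other 20. Of the resulting 210 comparisons, 31 were called higher (14.8%, where 11.0% of comparisons over all genes were) and 29 lower (13.8%, against 7.15%). The comparisons share their mice and are not independent. *Adhfe1* (5 higher, 5 lower), *Aldh8a1* (5 and 3) and *Aldh16a1* (5 and 7), picked by the study on these same livers, hold many of these calls. The excess over all genes is therefore not independent evidence. Without IL-1052 and IL-2750, 59 of 190 were called. Of the 60 calls, 27 held under every alternative tried and 33 ended under at least 1, and none changed sign.

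**Figure D3:**
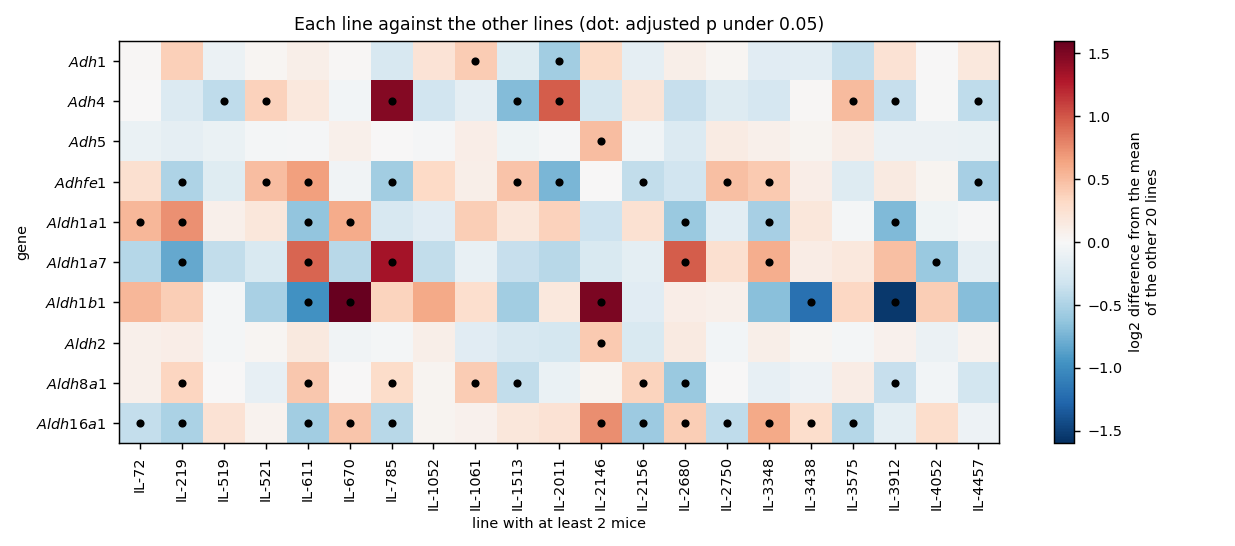
Difference of each line with at least 2 mice (horizontal axis) from the mean of the other 20 lines, on the log2 scale (color), for the 10 genes (vertical axis); dots mark an adjusted p under 0.05. *Adh4* in IL-785 (1.47), *Aldh1b1* in IL-670 (1.59) and *Aldh1b1* in IL-3912 (-1.54) are among the strongest colors.

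*Adh1* encodes the class I enzyme, the main cytosolic ethanol dehydrogenase of liver. The mice of IL-2011 had 462 and 765 FPKM and those of IL-1061 had 970 and 1108 FPKM. The highest level, 1286 FPKM, was in the only mouse of IL-2126, followed by 1164 and 1184 FPKM in IL-219. The lines overlapped broadly, and the SD within lines (129 FPKM) was near that of the line means (146 FPKM). IL-2011 was lower than the other lines (log2 difference -0.55 ± 0.16 SE, edgeR, adjusted p = 0.0150), a call that ended without IL-2011 replicate 1 (0.403). IL-1061 was called higher (0.41 ± 0.15 SE, edgeR, adjusted p = 0.0482), and this ended under 43 of the alternatives, among them RLE normalization (0.0610) and leaving out IL-1061 replicate 2 (0.489).

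*Adh4* encodes the class II enzyme, which accepts retinol and longer alcohols. The mice of IL-785 had 281, 328 and 342 FPKM, and those of IL-2011 had 231 and 274 FPKM. The only mice of IL-2689 and IL-2693 had 345 and 355 FPKM, but carry no replicate error. At the low end were IL-2126 with 58.8 FPKM in its only mouse and IL-1513 with 76.9 and 92.6 FPKM. No mouse outside IL-785, IL-2011, IL-2689 and IL-2693 exceeded 214 FPKM, so these lines did not overlap with the rest. IL-785 was higher than the other lines by 1.47 ± 0.09 SE on the log2 scale (edgeR, adjusted p = 4.35e-13) and IL-2011 by 0.97 ± 0.12 SE (edgeR, adjusted p = 2.93e-07). IL-1513 was lower (-0.69 ± 0.14 SE, edgeR, adjusted p = 0.000474). These calls held under every alternative. IL-521 and IL-3575 were also called higher and IL-519, IL-3912 and IL-4457 lower, with log2 differences from -0.41 to 0.51. Each of those calls ended without a mouse of its own line, with adjusted p-values by edgeR of 0.235 without IL-521 replicate 1, 0.0883 without IL-3575 replicate 1, 0.206 without IL-519 replicate 2, 0.209 without IL-3912 replicate 2 and 0.435 without IL-4457 replicate 2. That of IL-3912 ended under 38 alternatives, most of them leaving out a mouse of another line, and also with a minimum of 10 counts in every mouse (edgeR, adjusted p = 0.0544).

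*Adh5* encodes the class III enzyme, which oxidizes the glutathione adduct of formaldehyde. Its line means had the smallest relative spread of the 10 genes (SD 11.9% of the mean), from 162 FPKM in IL-519 to 269 FPKM in IL-2146. Both mice of IL-519 had about the same level (162 and 163 FPKM), and the mice of IL-2146 had 250 and 289 FPKM. Only IL-2146 was called, higher by 0.49 ± 0.08 SE on the log2 scale (edgeR, adjusted p = 2.36e-05), under every alternative. This is the line that stood apart across genes and had the lowest endothelial and stellate cell markers.

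*Adhfe1* (ENSMUSG00000025911, chr1:9538029-9568051, plus strand) encodes a mitochondrial iron-dependent hydroxyacid-oxoacid transhydrogenase. The mice of IL-2011 had 20.9 and 21.5 FPKM, those of IL-4457 had 22.4 and 22.5 FPKM, and those of IL-785 had 16.7, 24.9 and 25.2 FPKM. By contrast, the mice of IL-611 had 47.6, 49.99 and 52.2 FPKM, with no overlap. IL-611 was higher by 0.65 ± 0.10 SE on the log2 scale (edgeR, adjusted p = 8.36e-06) and IL-2011 lower (-0.73 ± 0.13 SE, edgeR, adjusted p = 0.000176). IL-785 was lower as well (-0.56 ± 0.11 SE) and IL-2750, whose labels are in doubt, was higher (0.48 ± 0.10 SE). These 4 calls held under every alternative that contained the line. The calls of IL-4457, IL-219 and IL-2156 (lower) and of IL-521, IL-1513 and IL-3348 (higher) each ended without a mouse of the same line. The adjusted p-values by edgeR were then 0.0505 without IL-4457 replicate 2, 0.151 without IL-219 replicate 1, 0.0781 without IL-2156 replicate 1, 0.0550 without IL-521 replicate 2, 0.0551 without IL-1513 replicate 1 and 0.0946 without IL-3348 replicate 1.

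*Aldh1a1* encodes a cytosolic enzyme that turns retinaldehyde into retinoic acid and also accepts acetaldehyde, and *Aldh1a7* is its rodent paralog. The mice of IL-219 had the highest *Aldh1a1* levels of all (994 and 1110 FPKM) and low *Aldh1a7* levels (79.6 and 88.2 FPKM). The mice of IL-611 had 328, 411 and 424 FPKM of *Aldh1a1* with 227, 234 and 259 FPKM of *Aldh1a7*. Between these lines neither gene overlapped. The mice of IL-785 had 223, 288 and 413 FPKM of *Aldh1a7*. Line mates in IL-2680 were far apart, with 304 and 581 FPKM of *Aldh1a1* and 153 and 399 FPKM of *Aldh1a7*.

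IL-219 was higher than the other lines in *Aldh1a1* (0.74 ± 0.16 SE on the log2 scale, edgeR, adjusted p = 0.00154) and lower in *Aldh1a7* (-0.81 ± 0.21 SE, edgeR, adjusted p = 0.00724). IL-611 was lower in *Aldh1a1* (-0.63 ± 0.16 SE, edgeR, adjusted p = 0.00411) and higher in *Aldh1a7* (0.93 ± 0.15 SE, edgeR, adjusted p = 3.23e-05). IL-2680 and IL-3348 were likewise called lower in *Aldh1a1* (-0.59 and -0.53) and higher in *Aldh1a7* (0.97 and 0.58). In IL-785 *Aldh1a7* was higher by 1.33 ± 0.14 SE (edgeR, adjusted p = 4.24e-08), while *Aldh1a1* was not called (-0.26 ± 0.15 SE, edgeR, adjusted p = 0.254). *Aldh1a1* was also higher in IL-670 (0.60) and IL-72 (0.53) and lower in IL-3912 (-0.70), and *Aldh1a7* was lower in IL-4052 (-0.60). The calls of *Aldh1a1* in IL-219, IL-611 and IL-670 and of *Aldh1a7* in IL-611 and IL-785 held under every alternative.

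The other calls of this pair each ended without a mouse of the same line. For *Aldh1a7*, the adjusted p (edgeR) became 0.0817 without IL-219 replicate 2, 0.629 without IL-2680 replicate 1, 0.446 without IL-3348 replicate 1 and 0.215 without IL-4052 replicate 2. For *Aldh1a1*, it became 0.561 without IL-2680 replicate 2, 0.459 without IL-3348 replicate 2, 0.0893 without IL-3912 replicate 2 and 0.193 without IL-72 replicate 2. The calls of *Aldh1a1* in IL-3348 and of *Aldh1a7* in IL-4052 ended under 28 and 22 alternatives, most of them leaving out a mouse of another line.

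Because fragments were divided between these paralogs, their counts were also merged into 1 row, an alternative chosen after seeing the data. *Aldh1a1* weighed most in that row (median 33304 counts per liver, against 6930 for *Aldh1a7*), so the row registers changes of *Aldh1a7* only weakly. The merged row differed among lines (edgeR, adjusted p = 0.0197). Only IL-219 (0.51 ± 0.17 SE on the log2 scale, edgeR, adjusted p = 0.0307) and IL-670 (0.41 ± 0.14 SE, edgeR, adjusted p = 0.0355) were called, both higher. In IL-611 the merged row was at -0.24 ± 0.15 SE (edgeR, adjusted p = 0.285) and in IL-785 at 0.14 ± 0.14 SE (edgeR, adjusted p = 0.576). The intraclass correlation, here given without a test, was 0.360 for the sum of both levels and 0.847 for their ratio. The ratio of *Aldh1a1* to *Aldh1a7* was 1.39, 1.63 and 1.83 in the mice of IL-785 and averaged 12.5 in IL-219. Whether the division of shared fragments took part in the opposite differences was not tested.

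**Figure D4:**
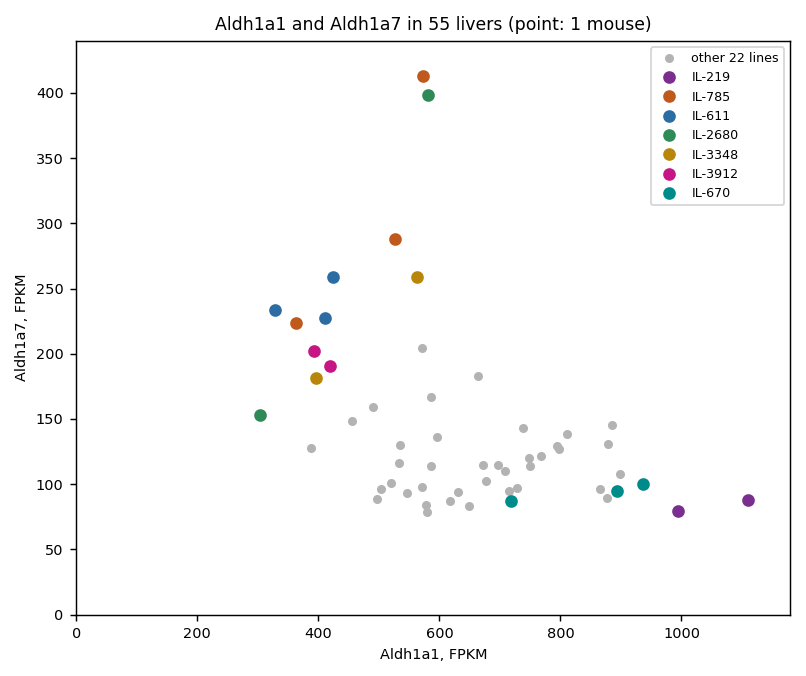
*Aldh1a7* (vertical axis, FPKM) against *Aldh1a1* (horizontal axis, FPKM), a point for each of 55 mice, with 7 lines in color and the other 22 in gray. The mice of IL-219 lie at the lower right (994 and 1110 FPKM of *Aldh1a1*), and those of IL-611 and IL-785 at the upper left.

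*Aldh1b1* (ENSMUSG00000035561, chr4:45811894-45817476, plus strand) encodes a mitochondrial enzyme that accepts acetaldehyde. Its line means spanned 7.0-fold, the widest range of the 10 genes. The mice of IL-670 had 69.7, 77.7 and 101 FPKM, those of IL-2146 had 72.2 and 91.7 FPKM, and the only mouse of IL-1141 had 81.3 FPKM. All other mice had at most 51.5 FPKM, so these lines did not overlap with the rest. The mice of IL-3912 had 11.2 and 12.5 FPKM, those of IL-3438 had 14.1 and 14.5 FPKM, and those of IL-611 had 11.5, 14.0 and 22.1 FPKM. IL-670 was higher by 1.59 ± 0.18 SE on the log2 scale (edgeR, adjusted p = 1.05e-07) and IL-2146 by 1.51 ± 0.22 SE (edgeR, adjusted p = 6.29e-06). IL-3912 (-1.54 ± 0.30 SE), IL-3438 (-1.20 ± 0.29 SE) and IL-611 (-0.97 ± 0.23 SE) were lower. These 5 calls held under every alternative.

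*Aldh2* (ENSMUSG00000029455, chr5:122016036-122043833, minus strand) encodes the mitochondrial enzyme that clears most acetaldehyde. Line means ran from 411 FPKM in the only mouse of IL-557 to 721 FPKM in the only mouse of IL-4032, and among lines with at least 2 mice from 459 FPKM in IL-2011 (361 and 557) to 706 FPKM in IL-2146 (616 and 796). No step between neighboring lines exceeded the spread within lines, as also for *Adh1* and *Adh5*. Only IL-2146 was called, higher by 0.42 ± 0.11 SE on the log2 scale (edgeR, adjusted p = 0.00582), and this ended without IL-2146 replicate 1 (0.268). *Aldh1b1* and *Aldh16a1* were likewise called higher in that line.

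*Aldh8a1* (ENSMUSG00000037542, chr10:21097097-21116391, plus strand) encodes a cytosolic enzyme of tryptophan breakdown that also accepts retinaldehyde. The mice of IL-611 had 130, 135 and 148 FPKM, those of IL-2156 had 135, 137 and 139 FPKM, and those of IL-219 had 143 and 144 FPKM. The mice of IL-2680, with 62.8 and 91.8 FPKM, lay below all of these. IL-611 was higher by 0.43 ± 0.08 SE on the log2 scale (edgeR, adjusted p = 0.000423) and IL-2156 by 0.36 ± 0.09 SE (edgeR, adjusted p = 0.00300), under every alternative. IL-2680 was lower (-0.59 ± 0.11 SE, edgeR, adjusted p = 0.000360), except without IL-2680 replicate 2 (0.0690). The calls of IL-219, IL-785 and IL-1061 (higher) and of IL-1513 and IL-3912 (lower) also ended without a mouse of the same line. The adjusted p-values by edgeR were then 0.129 without IL-219 replicate 2, 0.0937 without IL-785 replicate 3, 0.0785 without IL-1061 replicate 2, 0.110 without IL-1513 replicate 2 and 0.215 without IL-3912 replicate 2.

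*Aldh16a1* (ENSMUSG00000007833, chr7:52396054-52409954, minus strand) encodes a superfamily member that lacks the catalytic cysteine in mammals. It was called in more lines than the other genes, 5 higher and 7 lower. The mice of IL-2156 had 8.41, 8.42 and 9.10 FPKM and those of IL-611 had 8.49, 8.93 and 9.53 FPKM. Those of IL-3348 had 20.4 and 24.8 FPKM and those of IL-2146 had 17.5 and 29.6 FPKM, above and apart from the former. IL-2146 was higher by 0.75 ± 0.10 SE on the log2 scale (edgeR, adjusted p = 1.31e-06) and IL-3348 by 0.61 ± 0.10 SE (edgeR, adjusted p = 3.43e-05). IL-2156 was lower (-0.59 ± 0.09 SE, edgeR, adjusted p = 2.70e-05), as was IL-611 (-0.55 ± 0.09 SE, edgeR, adjusted p = 5.95e-05). These calls, and those of IL-670 (0.44), IL-785 (-0.45) and IL-2750 (-0.40), held under every alternative that contained the line. The calls of IL-219, IL-3575 and IL-72 (lower) and of IL-2680 and IL-3438 (higher) ended without a mouse of the same line. The adjusted p-values by edgeR were then 0.0508 without IL-219 replicate 1, 0.0644 without IL-3575 replicate 1, 0.117 without IL-72 replicate 1, 0.131 without IL-2680 replicate 2 and 0.397 without IL-3438 replicate 2, and the call of IL-3438 ended under 44 alternatives in all, among them leaving out IL-1052 and IL-2750 (0.0553), RLE normalization (0.0555) and leaving out mice of other lines.

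Across the 29 line means no pair of the 10 genes passed the test of correlation, out of 45 pairs (log2(FPKM + 1), two-sided permutation test, adjusted over 59455 relations, of which 0.225% were called). Unadjusted, 6 pairs had p under 0.05. The closest pair by rho was *Adh1* and *Aldh2*, the successive enzymes of ethanol oxidation (Spearman's rho 0.61, permutation p = 0.000420, adjusted p = 0.0759; Pearson's r 0.55, permutation p = 0.00156, adjusted p = 0.0733). Without the 2 lines farthest from the median of *Adh1*, r was 0.51. On the TPM scale this pair was called (rho 0.69, permutation test, adjusted p = 0.0120), and no other alternative called any pair by rho. By r the closest pair was *Aldh1a1* and *Aldh1a7*, with rho -0.42 and r -0.58 (permutation test, adjusted p = 0.302 and 0.0602), with r -0.48 without the 2 farthest lines.

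The genes whose line means followed a dehydrogenase most closely were taken from the same test. *Aldh2* had 76 called relations, all positive, led by *Epn1* (rho 0.85), *Akt2* (0.82) and *Trap1* (0.81). *Trap1*, a mitochondrial chaperone, was also among the 3 genes closest to *Adh1* (0.66). *Adh5* was closest to *Nfu1* (0.80), an iron-sulfur cluster factor, and *Adh4* to *Oxsm* (0.77), an enzyme of mitochondrial fatty acid synthesis. *Aldh16a1* was closest to *Cox6b1* (0.74), a subunit of cytochrome c oxidase, and *Aldh8a1* to *Pqlc2* (0.74). *Adhfe1* was closest to *Npc1* (0.72), *Aldh1b1* to *Slc46a3* (0.68) and *Adh1* to *Serpina6* (0.68). These relations, over 29 lines, had adjusted p-values of at most 0.0461 (permutation test) and Pearson's r from 0.65 to 0.86. *Aldh1a1* and *Aldh1a7* had no called relation.

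None of the 10 genes was called with body weight, age or sequencing depth, and neither was any of the 5951 traits (0%). The strongest relation with weight was that of *Aldh1b1* (rho -0.47, permutation p = 0.0116, adjusted p = 0.811; r -0.41, permutation p = 0.0269, adjusted p = 0.639; r -0.37 without the 2 farthest lines). The strongest with depth was that of *Aldh1a1* (rho -0.48, permutation p = 0.00978, adjusted p = 1; r -0.52, permutation p = 0.00431, adjusted p = 0.998; r -0.56 without the 2 farthest lines). Between 9 lists of marker genes and the 10 dehydrogenases no relation was called either, where 0.853% were over all traits. The closest was that of *Adhfe1* with the summed level of 6 pericentral hepatocyte markers (rho 0.60, permutation test, adjusted p = 0.0746; r 0.47, permutation p = 0.00867), which ranged from 1326 FPKM in IL-1061 to 7415 FPKM in IL-2126. *Cyp2e1*, which is in that list, alone had 985 FPKM in IL-1061 and 5645 FPKM in IL-2126, so it weighed most in the sum of these lines. In IL-611, called higher in *Adhfe1*, 5 of 6 pericentral markers were called higher, and in IL-4457, called lower, 4 of 6 were lower. In IL-1061 5 of 6 were lower though *Adhfe1* was not called. In IL-219 and IL-2156, called lower in *Adhfe1*, 2 of 6 were higher. The part of these markers in the levels of *Adhfe1* was not tested.

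Of the 10 genes, 4 had an isoform-ratio trait, the share of a gene's transcripts assigned to an isoform. A difference in exons near the 5′ end is shown for *Adhfe1* and *Adh4*, 1 of several by which the isoforms of each gene differ, since they also differ in length and 3′ end. ENSMUST00000144177 of *Adhfe1* contains coding exon 3 of 41 bases (chr1:9541798-9541838, plus strand, in capitals, with 15 exonic bases on each side), which ENSMUST00000027044 lacks. ENSMUST00000161312 of *Adh4* begins exon 2 with 36 more coding bases than ENSMUST00000013458 (chr3:138081053-138081088, plus strand, in capitals, with 15 exonic bases on each side).
Adhfe1: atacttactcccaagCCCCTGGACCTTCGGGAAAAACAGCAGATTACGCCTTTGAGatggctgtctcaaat
Adh4: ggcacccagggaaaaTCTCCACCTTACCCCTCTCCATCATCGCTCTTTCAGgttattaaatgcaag

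In *Adhfe1* the isoform without that exon, annotated as a target of nonsense-mediated decay, made up 90.8% of transcripts on average, and the one with it 8.92%. In *Adh4*, ENSMUST00000013458 made up 84.5% and ENSMUST00000161312, which ends in exon 6, made up 10.7%. In *Aldh2*, ENSMUST00000129753, annotated with a retained intron, made up 62.9% and the protein-coding ENSMUST00000031411 of 13 exons 36.6%. In *Aldh16a1*, the protein-coding ENSMUST00000007977 and ENSMUST00000107815 made up 45.4% and 40.3%. *Adh1*, *Adh5*, *Aldh1b1* and *Aldh8a1* each had 1 isoform above 99%, and *Aldh1a1* and *Aldh1a7* each had 1 isoform listed.

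The isoform shares differed among lines in 4 of 4 genes (permutation test of the intraclass correlation, adjusted over 6652 traits), beside 26.1% of all isoform-ratio traits. The share of ENSMUST00000161312 of *Adh4* differed with an intraclass correlation of 0.651 (permutation test, adjusted p = 0.00209). It was 16.7% and 16.9% in the mice of IL-3575 and 4.60%, 7.0% and 7.18% in those of IL-2750, whose labels are in doubt, without overlap. The lowest share, 1.91%, was in the only mouse of IL-2126. The share of ENSMUST00000031411 of *Aldh2* was 31.2% and 31.6% in IL-1061, 41.9% and 45.4% in IL-4457 and 53.8% in the only mouse of IL-2126 (0.598, adjusted p = 0.00475, permutation test). The share of ENSMUST00000027044 of *Adhfe1* ran from 88.0% in IL-1452 to 93.3% in IL-3575 (0.477, adjusted p = 0.0290, permutation test). The share of ENSMUST00000107815 of *Aldh16a1* was 12.7% and 31.96% in IL-2011 and 50.4%, 51.99% and 54.0% in IL-785 (0.453, adjusted p = 0.0375, permutation test). Without IL-1052 and IL-2750 the calls of *Adhfe1* (adjusted p = 0.0736, permutation test) and *Aldh16a1* (0.0748) ended, leaving 2 of 4. The call of *Aldh16a1* also ended with only lines of at least 2 mice (permutation test, adjusted p = 0.0540) and on leaving out any of 13 mice singly (up to 0.0666).

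Of the 6 pairs among the 4 shares, 2 were called by rho across the 29 lines. The share of ENSMUST00000031411 of *Aldh2* fell where that of ENSMUST00000107815 of *Aldh16a1* rose (rho -0.82, permutation test, adjusted p = 0.000742; r -0.84, permutation test, adjusted p = 0.000512; r -0.83 without the 2 farthest lines). It was also called with ENSMUST00000161312 of *Adh4* (rho -0.64, permutation test, adjusted p = 0.00907; r -0.70, permutation test, adjusted p = 0.00113; r -0.67 without the 2 farthest lines). The shares of *Aldh16a1* and *Adh4* passed by r (0.51, permutation test, adjusted p = 0.0465) and not by rho (0.49, adjusted p = 0.0726). The share of *Adhfe1* was not called with those of *Aldh2* (rho 0.41, permutation test, adjusted p = 0.165; r 0.40), *Aldh16a1* (rho -0.34, adjusted p = 0.289; r -0.38) or *Adh4* (rho -0.08, adjusted p = 0.871; r -0.07). The called relations were not particular to the dehydrogenases: 20.5% of 6648 other isoform-ratio traits were called with the *Aldh2* share, and 9.02% of relations in the whole family. The mean share of 7416 retained-intron isoforms of other genes was called with the *Aldh2* share (rho 0.52, permutation test, adjusted p = 0.0443; r 0.53, permutation test, adjusted p = 0.0334; r 0.47 without the 2 farthest lines). The *Aldh2* share here is that of the protein-coding ENSMUST00000031411, not that of the *Aldh2* isoform annotated with a retained intron. By rho the mean share of retained-intron isoforms was not called with the shares of *Adhfe1*, *Adh4* or *Aldh16a1*, and 3.17% of 6648 other traits were called with it. The mean share of the longest isoform over 6680 other genes, a measure added after seeing the data, ran from 42.9% in IL-2126 to 45.6% in IL-1061. It was called with the shares of *Aldh2* (rho -0.75, permutation test, adjusted p = 0.000742; r -0.81), *Adh4* (rho 0.71, permutation test, adjusted p = 0.00275; r 0.72) and *Aldh16a1* (rho 0.64, permutation test, adjusted p = 0.00599; r 0.61), and not with that of *Adhfe1* (rho -0.34, permutation test, adjusted p = 0.277; r -0.38). Without the 2 farthest lines r was -0.74, 0.63, 0.53 and -0.34. Of 6648 other isoform-ratio traits, 14.5% were called with this measure. Although ENSMUST00000031411 is the longest isoform of *Aldh2* (3867 bases), its share fell where this measure rose. With scores adjusted for this measure, the shares of *Adh4* (adjusted p = 0.0489, permutation test) and *Aldh2* (0.00447) still differed among lines. Those of *Adhfe1* (0.0540) and *Aldh16a1* (0.0688) did not pass. Over all 6652 isoform-ratio traits, 1376 were called under this adjustment, where 1735 were called without it. For total expression, the same adjustment ended the call of *Adh1* (intraclass correlation 0.279, permutation test, adjusted p = 0.0822). The other dehydrogenases stayed called, *Adh4* with a value of 0.625. Over all 5951 total-expression traits, 5421 were called under this adjustment, where 5606 were called without it.

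**Figure D5:**
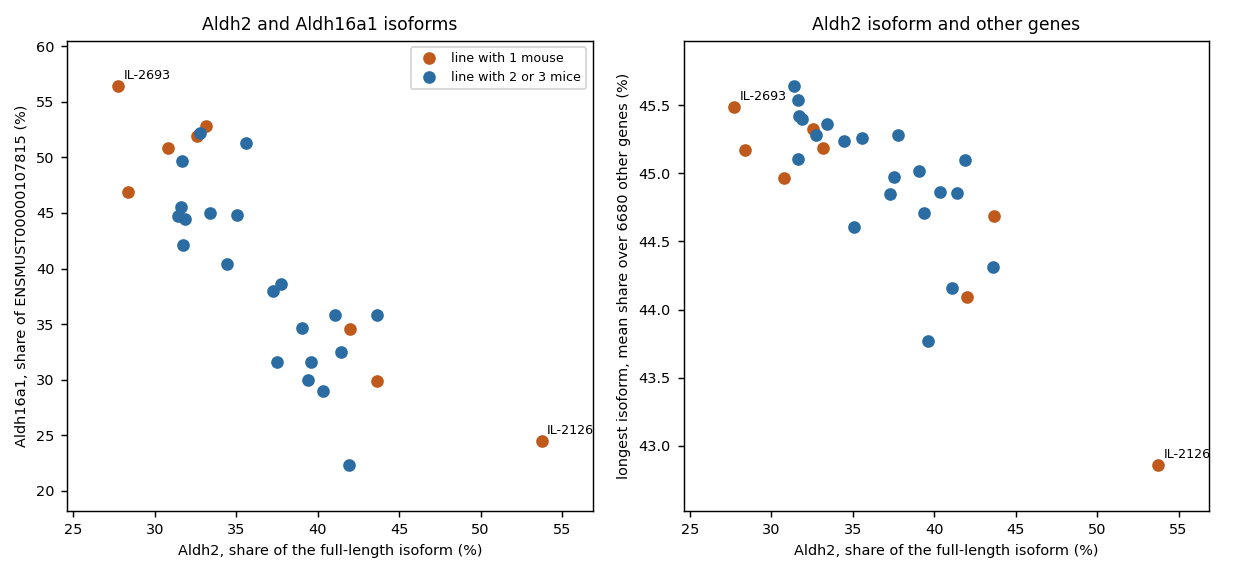
Share of ENSMUST00000031411 of *Aldh2* (horizontal axes, %) in 29 lines, against the share of ENSMUST00000107815 of *Aldh16a1* (left, %) and the mean share of the longest isoform of 6680 other genes (right, %); a point is a line mean, orange for lines with 1 mouse. Both fall as the *Aldh2* share rises, and IL-2126 lies farthest out at 53.8%.

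Other genes of the same pathways were counted in lists. Of 4 other alcohol dehydrogenase genes, 2 passed the filter on low counts, and both differed among lines (*Adh6-ps1* and *Adh7*). Of 14 other aldehyde dehydrogenases, 13 were tested and 12 differed, with intraclass correlations from 0.405 (*Aldh5a1*) to 0.715 (*Aldh9a1*) among the 7 kept as traits. All 5 other ethanol and acetate enzymes differed, from 0.407 (*Acss2*, which activates acetate) to 0.737 (*Cyp2e1*, the microsomal ethanol oxidase) among the 4 kept. Of 19 genes of retinoid metabolism tested, 17 differed, from 0.415 (*Dhrs4*) to 0.869 (*Rdh9*, a retinol dehydrogenase) among the 12 kept. Each share is to be read beside the 88.5% of all genes.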

How the data were processed

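Livers of 55 mice were taken as separate samples, grouped by the line in their labels, which name no library batch. The authors aligned paired reads of 50 bases to transcripts of mouse genome mm9 with Bowtie 2 and estimated levels with RSEM 1.2.18. The deposited expected counts are estimated fragments per gene, not normalized. The deposited FPKM and TPM values are scaled for length and depth by RSEM, and the deposited isoform percent is each isoform's share of its gene. Fragments that fit several features are divided by RSEM, so close paralogs and isoforms are less certain, and strain variants can affect alignment to 1 reference. Total counts of 20542671 to 33953036 per liver limit the precision of low genes. Squared differences between line mates (31 pairs, median over genes) were 2.52 to 31.2 times those expected from counting alone, more than a repeat of 1 library would give.

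Expected counts were rounded to whole numbers and fitted with edgeR 4.0.16 in R 4.3.3 (TMM, filterByExpr, quasi-likelihood F test, Benjamini-Hochberg adjustment). Intraclass correlations used van der Waerden scores of traits with a maximum FPKM of at least 2 and at least 12 levels, with 100000 permutations (smallest p 1e-05, one-sided). Correlations used line means. Scripts were tested on simulated data. Python 3.11.15, numpy 2.4.6, scipy 1.17.1, pandas 2.3.3, Biopython 1.88, matplotlib 3.10.9 and, as an alternative, DESeq2 1.42.0 were used. The threshold was an adjusted p of 0.05. Positions and sequences came from the GENCODE annotation and genome of NCBIM37 (mm9), a slightly older annotation than that used for the files. Protein sequences were not used here. The genes and lists were chosen with earlier results of these data known. Genes named are the dehydrogenases, for each of them the 3 genes closest in rho, the list genes of highest and lowest intraclass correlation, and isoforms with a mean share of at least 5%. Alternatives were other normalizations, filters, scales and traits, lines with at least 2 mice, leaving out IL-1052 and IL-2750 or each mouse in turn, and, added after seeing the data, merged paralogs and adjustment for the longest isoforms.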

Additional observations from a re-analysis of the deposited data

How the results depend on the processing

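All 10 dehydrogenases differed among lines in counts under every setting except the loss of *Aldh2* given above, with 9 to 10 called on leaving out each mouse. Calls of single lines numbered 52 to 65 on leaving out each mouse, beside 60. For the intraclass correlation of total expression, 9 to 10 genes were called on leaving out each mouse. The 4 calls of isoform ratios became 2 with the isoform of the highest mean share, 2 without IL-1052 and IL-2750 and 2 with adjustment for the longest isoforms (added after seeing the data), and 3 to 4 on leaving out each mouse. With the isoform of the highest mean share the intraclass correlation of Aldh16a1, isoform ratio, turned to -0.0491, where a different isoform is measured. Correlated pairs rose from 0 to 1 on the TPM scale; the cause was not tested. The range of line means, as highest over lowest, became 3.74 for *Adh4*, 1.54 for *Aldh2*, 1.86 for *Aldh8a1* and 2.72 for *Aldh16a1* with lines of at least 2 mice, which leave out extreme lines with 1 mouse, and 2.71 for *Adhfe1* on the TPM scale. No paired analysis was possible because mouse numbers of different lines mark no shared unit and line was the only factor. Lines with 1 mouse carry no replicate error. Many calls in lines of 2 or 3 mice ended on leaving out a single liver of the line. In lines of 2 mice this also removes the line's replication, so the loss alone does not show that the call rested on 1 liver.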
